A study of Mus musculus with 8 samples.

Results

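Tissue-resident macrophages carry a recognisable set of transcripts, and 10 such genes were followed here in brown adipose tissue (BAT) of obese mice. The genes were Cd163, Mrc1, Lyve1, Folr2, Timd4, Cbr2, F13a1, Cd209f, Cd5l and Marco, which were chosen as resident-type genes and found in the deposited tables by matching Ensembl identifiers to gene symbols. All 10 were present among the 44674 genes of the tables. Each was set against Adgre1, Cd68 and Csf1r, which macrophages in general express, in the same mouse.

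The study asked how orexin receptor 1 (Ox1R, encoded by Hcrtr1) in serotonergic neurons influences peripheral glucose metabolism in obesity. BAT was taken from 4 control and 4 Ox1RΔSERT mice, and polyadenylated RNA was sequenced from each mouse separately. All 8 animals were males that received a high-fat diet (HFD) from 4 to 18 wk of age and were killed when a hyperinsulinemic-euglycemic clamp ended. Ox1RΔSERT mice carried Ox1R fl/fl and 1 copy of Sert-Cre, a Cre recombinase under the Slc6a4 serotonin transporter promoter, and controls carried Ox1R fl/fl without Cre.

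The deletion was thus directed at neurons and not at BAT, and Sert-Cre also acts outside the raphe nuclei, in parts of the cingulate cortex and thalamus. In cells that carried a Cre reporter in those areas, the paper detected no Ox1R transcript. No Cre-only group was analysed here. Hcrtr1 had 0 to 5 counts per library in BAT, so these libraries do not check the deletion. The paper checked it by in situ hybridisation in reporter mice with the same deletion, where serotonergic neurons of the raphe had nearly lost their Ox1R signal. The brown fat markers Ucp1, Cidea, Dio2, Ppargc1a, Elovl3 and Adrb3 summed to between 2856 and 3847 TPM, a level scaled for transcript length and library total, in the 8 mice.

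Macrophages of adipose tissue comprise long-lived resident cells, often lying along vessels, and cells that derive from blood monocytes. The resident cells are known for scavenger receptors, lectins and endocytic receptors that clear debris, haemoglobin and dying cells, whereas the receptor for macrophage colony-stimulating factor is shared by nearly all macrophages. Several of the genes have a further source, since Lyve1 is also a lymphatic endothelial gene and Cd5l, Timd4 and Marco are also abundant in macrophages of liver and spleen. In whole tissue, fewer macrophages and less RNA per macrophage cannot be told apart.

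Promoter sequence is shown for 3 of the genes because they stand for 3 patterns in the libraries: Mrc1, which had the highest TPM of the set in every Ox1RΔSERT mouse, Cd5l, which was near the detection limit in 6 of 8 mice, and Cd163, which did not follow the pan-macrophage genes. Each line gives the 250 bases before the RefSeq transcription start (GRCm38.p6), 5′ to 3′ on the strand of the gene, at chr2:14229164-14229413 for Mrc1, chr3:87357631-87357880 for Cd5l and chr6:124304401-124304650 for Cd163, all on the plus strand. Capitals mark GAGGAAG, a motif bound by the myeloid factor PU.1, or its reverse complement.
Mrc1: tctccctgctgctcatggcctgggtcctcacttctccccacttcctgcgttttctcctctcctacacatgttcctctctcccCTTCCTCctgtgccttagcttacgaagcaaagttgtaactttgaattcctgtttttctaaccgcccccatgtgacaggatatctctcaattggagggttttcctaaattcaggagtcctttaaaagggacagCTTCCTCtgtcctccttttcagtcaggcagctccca
Cd5l: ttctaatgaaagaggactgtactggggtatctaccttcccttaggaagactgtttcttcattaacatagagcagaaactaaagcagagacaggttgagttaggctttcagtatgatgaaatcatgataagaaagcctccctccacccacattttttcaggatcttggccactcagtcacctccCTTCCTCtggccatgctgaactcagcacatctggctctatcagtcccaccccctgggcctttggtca
Cd163: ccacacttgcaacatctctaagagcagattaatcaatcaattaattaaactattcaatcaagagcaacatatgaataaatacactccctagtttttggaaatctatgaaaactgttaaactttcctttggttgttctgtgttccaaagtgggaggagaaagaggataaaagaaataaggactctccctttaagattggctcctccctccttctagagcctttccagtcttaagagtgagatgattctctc
The motif occurred at 2 places in the Mrc1 window, at 1 place in the Cd5l window and at none in the Cd163 window. A window was available for 9 of the 10 genes, and GAGGAAG was found on either strand in 5 of these 9 (Mrc1, Cbr2, F13a1, Cd5l and Marco). It was found in 10.6% of all 32851 windows of this length. The AP-1 motif TGACTCA occurred in windows of Folr2 and Cd209f (4.46% of all windows). None of these matches overlapped another. They describe the letters only.

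Each library held between 35852708 and 50063339 estimated counts, of which mitochondrial genes took 33.6% to 46.8%. Ox1RΔSERT mice 11601 and 11708 stood apart from the remaining 6 on the first principal component of the 14489 tested genes, at 61.6 and 80.5 against a range from -47.5 to 8.62. Values without these 2 mice are given beside many of the results that they moved, by gene or by list, but not beside all. Normalised values are CPM, counts divided by library size after scaling by the trimmed mean of M-values (TMM), and per-mouse values are listed for control mice 10684, 11253, 11560 and 11563 and then for Ox1RΔSERT mice 11243, 11601, 11613 and 11708. Fold changes compare Ox1RΔSERT with control mice by edgeR's quasi-likelihood test, and adjusted p-values are Benjamini-Hochberg values over all tested genes.

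In control BAT the 10 genes spanned a wide range of levels per transcript length. Cbr2 had the highest mean at 7.24 ± 3.25 TPM (SD, n = 4), followed by Mrc1 at 5.97 ± 1.33, F13a1 at 4.95 ± 1.35, Folr2 at 4.30 ± 0.757, Lyve1 at 3.93 ± 1.38 and Cd163 at 3.05 ± 0.937 TPM. Means of neighbours among these 6 did not differ beyond their SD between mice. Within mice, Mrc1 exceeded F13a1, F13a1 exceeded Folr2 and Lyve1 exceeded Cd163 in 4 of 4 controls. Cbr2 exceeded Mrc1 and Folr2 exceeded Lyve1 in 3 of 4. Cd209f followed at 0.936 ± 0.311 TPM, apart from both its neighbours. Timd4 at 0.0818, Cd5l at 0.0466 and Marco at 0.0425 TPM rested on 11 counts or fewer in every control library. In Ox1RΔSERT BAT the order began with Mrc1 at 21.1 ± 14.0 TPM, Folr2 at 14.8 ± 11.6, Cbr2 at 11.95 ± 8.17 and F13a1 at 10.7 ± 6.63 TPM, each with a larger SD than in control mice.

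**Figure D1:**
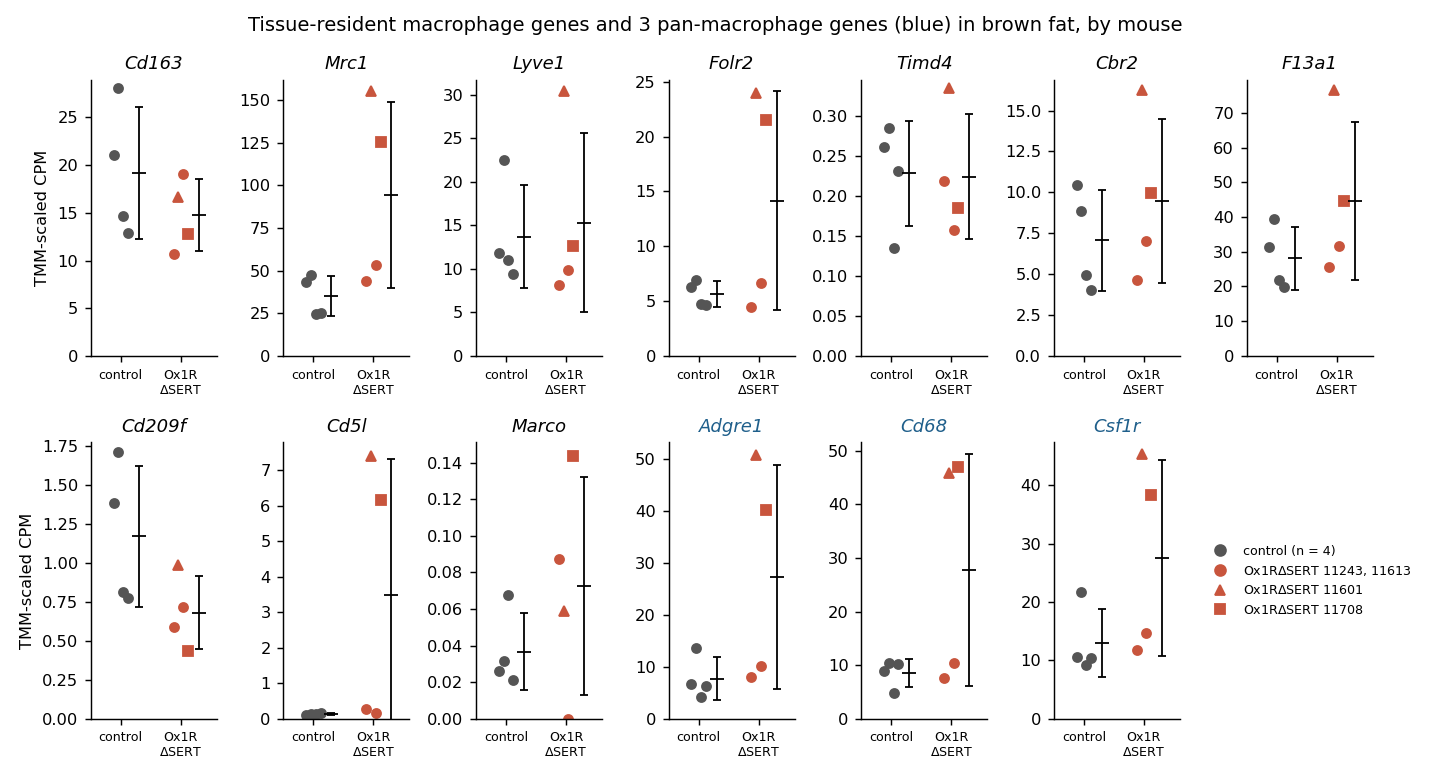
TMM-scaled CPM (y axis, linear from 0) of the 10 resident-type genes (black titles) and 3 pan-macrophage genes (blue titles) in each mouse, with mean and SD (n = 4) beside the points. Ox1RΔSERT mice 11601 (triangle) and 11708 (square) were the highest pair for Mrc1, Folr2, F13a1, Cd5l and all 3 pan-macrophage genes, but not for Cd163 or Cd209f.

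Of the 10 genes, 7 passed the filter on low counts, and Timd4, Cd5l and Marco did not. With edgeR, 0 of these 7 genes passed an adjusted p of 0.05, and the same held for 0.0% of all tested genes. At an unadjusted p under 0.05, Mrc1 and Folr2 were higher in Ox1RΔSERT mice and no member was lower, against 10.2% of all tested genes that were higher and 4.96% that were lower. DESeq2, which keeps genes of lower counts, called Mrc1 and Cd5l higher at an adjusted p under 0.05, against 1.54% of 15119 genes. The edgeR likelihood-ratio test and limma voom called 0 members. The median log2 fold change of the 7 genes was 0.43, and that of all tested genes was 0.00.

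The haemoglobin scavenger receptor Cd163 (ENSMUSG00000008845, chromosome 6, 124304656 to 124330527) is a classical gene of these cells. Its normalised values were 21.0, 28.1, 14.6 and 12.9 CPM in control mice and 10.7, 16.6, 19.1 and 12.8 CPM in Ox1RΔSERT mice. The groups overlapped, and mice 11601 and 11708 lay within the range of the other 6. The log2 fold change was -0.37 with an SE of 0.27 (edgeR, adjusted p = 0.515). It was 0.02 on the log2(TPM + 1) scale, and the mean levels were 3.05 ± 0.937 TPM in control and 3.13 ± 1.06 TPM in Ox1RΔSERT mice (SD, n = 4). The direction for Cd163 thus turned with the scaling. The median log2 fold change of all tested genes was 0.23 on the log2(TPM + 1) scale, 0.32 on the log2(TPM + 0.1) scale and 0.22 with scaling by library size alone.

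Cd5l (ENSMUSG00000015854, chromosome 3, 87357881 to 87371073) encodes a secreted scavenger protein with the same cysteine-rich domains, known as AIM, the apoptosis inhibitor of macrophages. It had 4, 4, 6 and 7 counts in control mice and 12, 375, 7 and 299 counts in Ox1RΔSERT mice. As normalised values, the 4 control mice lay between 0.105 and 0.147 CPM and the Ox1RΔSERT mice at 0.262, 7.40, 0.157 and 6.15 CPM. The groups did not overlap (exact permutation test over 70 assignments, two-sided, p = 0.0286, the smallest value that 4 against 4 mice can give). However, mouse 11613 lay next to the highest control, mouse 11563, and both had 7 counts, so only the scaling set them apart. Among all tested genes, which did not include Cd5l, 2.69% separated upwards. DESeq2 gave a log2 fold change of 4.73 for Cd5l with an adjusted p of 0.0155. No member was called by DESeq2 when any 1 of Ox1RΔSERT mice 11601 and 11708 and control mice 11560 and 11563 was left out, and in these fits DESeq2 called 17 to 49 genes in all, against 265 with all mice.

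Because Cd5l is also a liver macrophage gene, hepatocyte transcripts were examined in the same libraries. The summed TPM of Alb, Apoa1, Apoa2, Ttr, Serpina1a and Fgb was 2.46 to 21.2 in control mice, 604 in mouse 11708, 46.4 in mouse 11601 and at least 6.19 in each Ox1RΔSERT mouse. Clec4f, a gene of liver Kupffer cells that was chosen after its values were seen, had 27 counts in mouse 11708, 6 in mouse 11601 and 0 to 4 in the other 6 mice. Mouse 11601 had the most Cd5l counts, and its hepatocyte sum of 46.4 TPM lay above every control. The part of liver RNA in the Cd5l values was not tested further.

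Marco (ENSMUSG00000026390, chromosome 1, 120474538 to 120505024), a class A scavenger receptor that binds bacteria and particles, was hardly detectable. It had 1, 1, 3 and 1 counts in control mice and 4, 3, 0 and 7 counts in Ox1RΔSERT mice. A library of this depth places 3 counts between 0.0592 and 0.0951 CPM, so a difference in Marco was not detectable at this depth.

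The mannose receptor Mrc1 (CD206; ENSMUSG00000026712, chromosome 2, 14229392 to 14332057) clears glycoproteins and collagen fragments by endocytosis. It stood at 43.1, 47.7, 24.7 and 25.3 CPM in control mice and at 43.9, 155, 53.4 and 126 CPM in Ox1RΔSERT mice. Mice 11601, 11613 and 11708 lay above all controls, and mouse 11243 lay inside the control range. The log2 fold change was 1.43 with an SE of 0.43 (edgeR, unadjusted p = 0.00936, adjusted p = 0.316), and DESeq2 gave an adjusted p of 0.0342. Over all alternative settings the adjusted p of Mrc1 ranged from 0.000753 to 1. Without mice 11601 and 11708 the log2 fold change was 0.48 with an SE of 0.29 (edgeR, adjusted p = 0.996).

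Cd209f (ENSMUSG00000051906, chromosome 8, 4102787 to 4105835), a C-type lectin of the DC-SIGN family, went the other way. Its values were 1.39, 1.71, 0.813 and 0.778 CPM in control mice and 0.590, 0.986, 0.718 and 0.432 CPM in Ox1RΔSERT mice, on 21 to 54 counts per library. In 3 of 4 Ox1RΔSERT mice Cd209f lay below all controls, and mouse 11601 lay inside the control range. Its log2 fold change was -0.77 with an SE of 0.36 (edgeR, adjusted p = 0.344), and it was -0.82 without mice 11601 and 11708 (edgeR, adjusted p = 0.996). Cd209f shares 36.3% of its 31-base words with the transcripts of its neighbour gene Cd209g, so the assignment of reads between them is uncertain. Cd209g itself was at 0.235 to 0.412 CPM in control and 0.103 to 0.237 CPM in Ox1RΔSERT mice, with a log2 fold change of -1.03 (edgeR, unadjusted p = 0.0185, adjusted p = 0.316).

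Among the 7 Cd209 lectin genes, 6 were tested, and 0 were higher and 1 (Cd209g) was lower at an unadjusted p under 0.05. Of all tested genes, 10.2% were higher and 4.96% were lower. The median log2 fold change of the Cd209 genes was -0.65 with all mice and -0.61 without mice 11601 and 11708. Log2 fold changes ran from -1.03 for Cd209g to 0.54 for Cd209a, and 1 of the 6 was above 0.

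Lyve1 (ENSMUSG00000030787, chromosome 7, 110850607 to 110863239) encodes a hyaluronan receptor of perivascular macrophages and lymphatic vessels. Its values were 11.9, 22.5, 11.04 and 9.40 CPM in control mice and 8.12, 30.5, 9.92 and 12.6 CPM in Ox1RΔSERT mice. Only mouse 11601 exceeded all controls, and the groups overlapped. The log2 fold change was 0.16 with an SE of 0.44 (edgeR, adjusted p = 0.881), and without mice 11601 and 11708 it turned to -0.59 with an SE of 0.35 (edgeR, adjusted p = 0.996).

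Lymphatic endothelial markers, which bear on the source of Lyve1, did not move as a group. Of 6 markers, 5 were tested, and 1 (Pdpn) was higher and 0 were lower at an unadjusted p under 0.05. Of all tested genes, 10.2% were higher and 4.96% were lower. The median log2 fold change of the 5 markers was -0.33 with all mice and -0.10 without mice 11601 and 11708. Groups did not overlap for Pdpn, which was higher, and Reln, which was lower, against 2.69% of all tested genes higher and 2.81% lower. Reln was at 0.855 ± 0.123 CPM in control and 0.629 ± 0.0677 CPM in Ox1RΔSERT mice (SD, n = 4). The defining marker Prox1 did not pass the filter on low counts. It was at 0.0225 to 1.27 CPM, with 62 counts in mouse 11708, which also had the most liver RNA, and 1 to 11 elsewhere. The summed TPM of the 6 markers was 4.32 to 5.40 in control and 6.06 to 31.3 in Ox1RΔSERT mice, and Pdpn, which fibroblasts also express, was at 5.36 ± 1.06 CPM in control and 23.8 ± 18.7 CPM in Ox1RΔSERT mice (SD, n = 4). The part of lymphatic vessels in the Lyve1 values was not tested.

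Folr2 (ENSMUSG00000032725, chromosome 7, 101839988 to 101857194), the folate receptor beta of resident macrophages, had values of 6.33, 6.91, 4.70 and 4.65 CPM in control mice. In Ox1RΔSERT mice it was at 4.45, 24.0, 6.69 and 21.5 CPM. Mice 11601 and 11708 were well above the other 6, among which both Ox1RΔSERT mice lay below the highest control. For Folr2 the log2 fold change was 1.33 with an SE of 0.51 (edgeR, unadjusted p = 0.0289, adjusted p = 0.316), and it was -0.01 with an SE of 0.25 without mice 11601 and 11708 (edgeR, adjusted p = 0.998). On the opposite strand, the antisense gene Gm10602 shares 975 exonic bases and 56.9% of the 31-base words of Folr2. Gm10602 was assigned 1 to 5 counts per library, against 204 to 1217 for Folr2, and the strand setting of the quantification is not given in the sources used here.

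Timd4 (ENSMUSG00000055546, chromosome 11, 46810800 to 46844332), the phosphatidylserine receptor TIM-4 with which resident macrophages bind dying cells, was rare in BAT. It had 10, 9, 6 and 11 counts in control mice and 10, 17, 7 and 9 counts in Ox1RΔSERT mice. These are 0.136 to 0.285 CPM in control and 0.157 to 0.335 CPM in Ox1RΔSERT mice. The ranges overlapped almost fully (exact permutation test, two-sided, p = 0.943).

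Enzymes completed the set. Cbr2 (ENSMUSG00000025150, chromosome 11, 120729489 to 120732114), a carbonyl reductase, was at 10.4, 8.85, 4.95 and 4.01 CPM in control and at 4.63, 16.3, 7.03 and 9.98 CPM in Ox1RΔSERT mice. Mouse 11601 alone exceeded the controls, and the log2 fold change was 0.43 with an SE of 0.43 (edgeR, adjusted p = 0.633), turning to -0.27 without mice 11601 and 11708. Cbr2 shares 14.97% of its 31-base words with Gm11771.

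F13a1 (ENSMUSG00000039109, chromosome 13, 36867178 to 37050244) encodes the A chain of coagulation factor XIII, a transglutaminase that macrophages produce. Its values were 31.3, 39.4, 21.9 and 19.8 CPM in control mice and 25.7, 76.6, 31.7 and 44.7 CPM in Ox1RΔSERT mice. Mice 11601 and 11708 exceeded all controls, and the groups overlapped. The log2 fold change of F13a1 was 0.67 with an SE of 0.35 (edgeR, adjusted p = 0.38) with all mice and 0.04 without mice 11601 and 11708 (edgeR, adjusted p = 0.996).

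**Figure D2:**
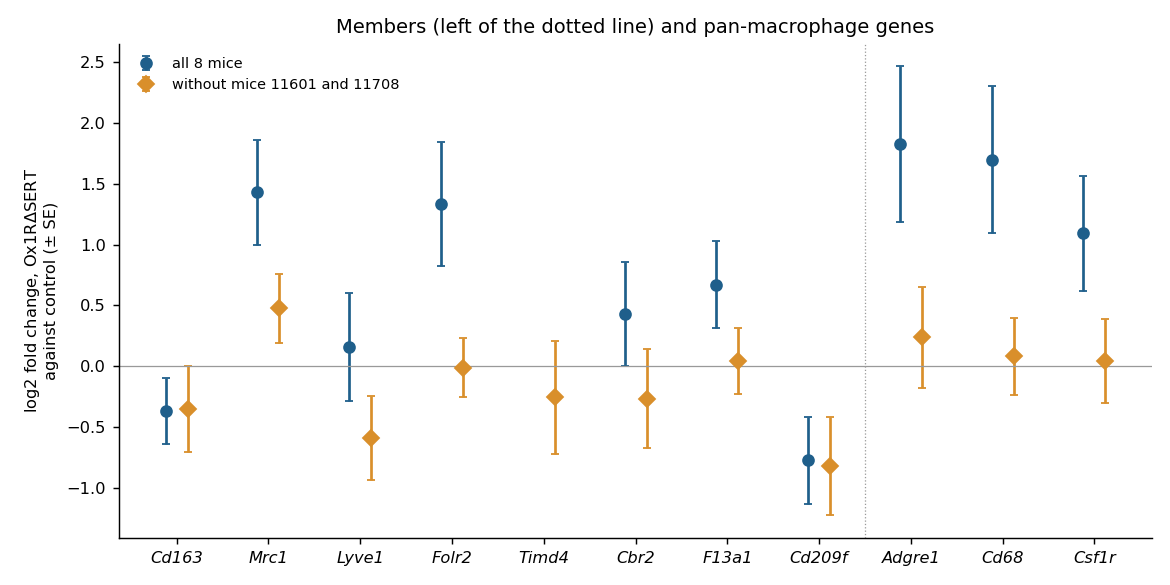
Log2 fold change, Ox1RΔSERT against control, with SE (y axis) for the tested resident-type genes and the 3 pan-macrophage genes, from all 8 mice (circles) and without mice 11601 and 11708 (diamonds). Mrc1 went from 1.43 to 0.48, Folr2 from 1.33 to -0.01 and Adgre1 from 1.82 to 0.24, whereas Cd209f stayed at -0.77 and -0.82 and Cd163 at -0.37 and -0.35.

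Across the 7 tested genes, 0 had groups that did not overlap, against 2.69% of all tested genes higher and 2.81% lower. Mice 11601 and 11708 were the highest pair for 3 of these 7 genes (Mrc1, Folr2 and F13a1), against 20.1% of all tested genes. Without these 2 mice 8 genes could be tested, since Timd4 then passed the filter. None of the 8 was higher or lower at an unadjusted p under 0.05 (edgeR and DESeq2), against 1.66% of 14856 genes that were higher with edgeR. The median log2 fold change of the 8 was -0.26, and that of all genes was -0.01.

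The pan-macrophage genes were all higher in Ox1RΔSERT mice at an unadjusted p under 0.05, against 10.2% of all tested genes. The glycoprotein F4/80, encoded by Adgre1, was at 6.64, 13.7, 4.22 and 6.35 CPM in control mice and at 7.97, 50.9, 10.1 and 40.2 CPM in Ox1RΔSERT mice (log2 fold change 1.82, SE 0.64; edgeR, adjusted p = 0.316). Cd68, a lysosomal protein, had a log2 fold change of 1.70 with an SE of 0.60 (edgeR, adjusted p = 0.316). For Csf1r, the receptor for macrophage colony-stimulating factor, it was 1.09 with an SE of 0.47 (edgeR, adjusted p = 0.328). All 3 were highest in mice 11601 and 11708. Without these mice the log2 fold changes of Adgre1, Cd68 and Csf1r were 0.24, 0.08 and 0.04. Of the 31-base words of Csf1r, 14.95% are shared with other genes, led by the opposite-strand gene Hmgxb3.

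To compare the members with the pan-macrophage genes in each mouse, the mean log2(CPM + 0.1) of Adgre1, Cd68 and Csf1r was subtracted from that of each gene. Marco was left out, since its counts did not exceed 3 in most libraries. The added 0.1 is near the CPM values of Timd4 (0.136 to 0.335) and, outside mice 11601 and 11708, of Cd5l (0.105 to 0.262). The ratios of these genes therefore depend in part on it. A gene that differs between groups by the same factor as the pan-macrophage genes gives a difference of 0, and a gene that differs less or not at all gives a negative one. The median difference over all 14489 tested genes was -1.25, and 97.1% of these genes lay below 0. For the 9 resident-type genes the median was -0.87, and it was -0.37 without mice 11601 and 11708.

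The ratios of Mrc1 and Folr2 differed least between groups. The log2 ratio of Mrc1 was 1.91 ± 0.37 in control and 1.95 ± 0.35 in Ox1RΔSERT mice (SD, n = 4; exact permutation test, two-sided, p = 0.83), a difference of 0.04 whose sign turned with 8 of 15 alternative settings. For Folr2 the ratio was -0.67 ± 0.38 in control and -0.92 ± 0.10 in Ox1RΔSERT mice (SD, n = 4; exact permutation test, two-sided, p = 0.343). F13a1 was lower by 0.66 on this log2 scale (exact permutation p = 0.171) and Cbr2 by 0.87 (exact permutation p = 0.143), and for both genes mice 11601 and 11708 had the lowest ratios of all 8. Without these 2 mice the differences were -0.11 for F13a1 (exact permutation p = 0.867) and -0.39 for Cbr2 (exact permutation p = 0.533).

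Lyve1 and Cd209f were lower relative to the pan-macrophage genes, as were 97.1% of all tested genes, with a median difference of -1.25. The log2 ratio of Lyve1 was 0.47, 0.62, 0.95 and 0.09 in control mice and -0.14, -0.63, -0.21 and -1.72 in Ox1RΔSERT mice. That of Cd209f was -2.54, -3.02, -2.66 and -3.34 in control mice and -3.71, -5.45, -3.83 and -6.30 in Ox1RΔSERT mice. For both genes every Ox1RΔSERT mouse lay below every control, by a mean of 1.21 for Lyve1 and 1.93 for Cd209f on the log2 scale (exact permutation test, two-sided, p = 0.0286 each, unadjusted for the 9 ratios tested). Such a separation downwards was seen in 1.19% of all tested genes. Without mice 11601 and 11708 the differences were -0.71 for Lyve1 (exact permutation p = 0.133) and -0.88 for Cd209f (exact permutation p = 0.0667), where 0.0667 is the smallest p that 4 against 2 mice can give. With Cd68 alone as denominator, the p-values were 0.0857 for Lyve1 and 0.0571 for Cd209f (exact permutation tests). Leaving out 1 mouse also lifted the p above 0.05, to 0.0571 or 0.0857 for Lyve1 without control mouse 10684, 11253 or 11560 or Ox1RΔSERT mouse 11708, and to 0.0857 for Cd209f without any 1 of the control mice (exact permutation tests).

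Cd163 and Timd4 also had negative differences, with some overlap, against a median of -1.25 over all tested genes. The log2 ratio of Cd163 was 1.29, 0.94, 1.35 and 0.54 in control mice and 0.26, -1.50, 0.72 and -1.70 in Ox1RΔSERT mice. In 3 of 4 Ox1RΔSERT mice it lay below all controls, and mouse 11613 lay above the lowest control. The difference of -1.59 for Cd163 did not pass the test (exact permutation test, two-sided, p = 0.0571), and it was -0.54 without mice 11601 and 11708. Timd4, on 6 to 17 counts, differed by -1.28 (exact permutation p = 0.0571), and by -0.37 without these 2 mice (exact permutation p = 0.267).

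Cd5l was the exception in the other direction, at a log2 ratio of -6.01 to -4.61 in control mice and of -4.64, -2.66, -5.50 and -2.74 in Ox1RΔSERT mice. Its difference of 1.41 did not pass the test (exact permutation p = 0.2), and it was 0.23 without mice 11601 and 11708 (exact permutation p = 0.733). In mice 11601 and 11708 the ratio of Cd5l lay above all others, whereas those of Cd163, Lyve1, Timd4, Cbr2, F13a1 and Cd209f lay below all others. Only for Mrc1 and Folr2 did these 2 mice lie within the range of the other 6. The denominator was itself highest in these 2 mice, at a mean log2 of 5.57 and 5.38 against 2.53 to 3.87 in the others. A gene that did not rise with the denominator gave a low ratio there. The share of all tested genes with this pattern was not counted.

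**Figure D3:**
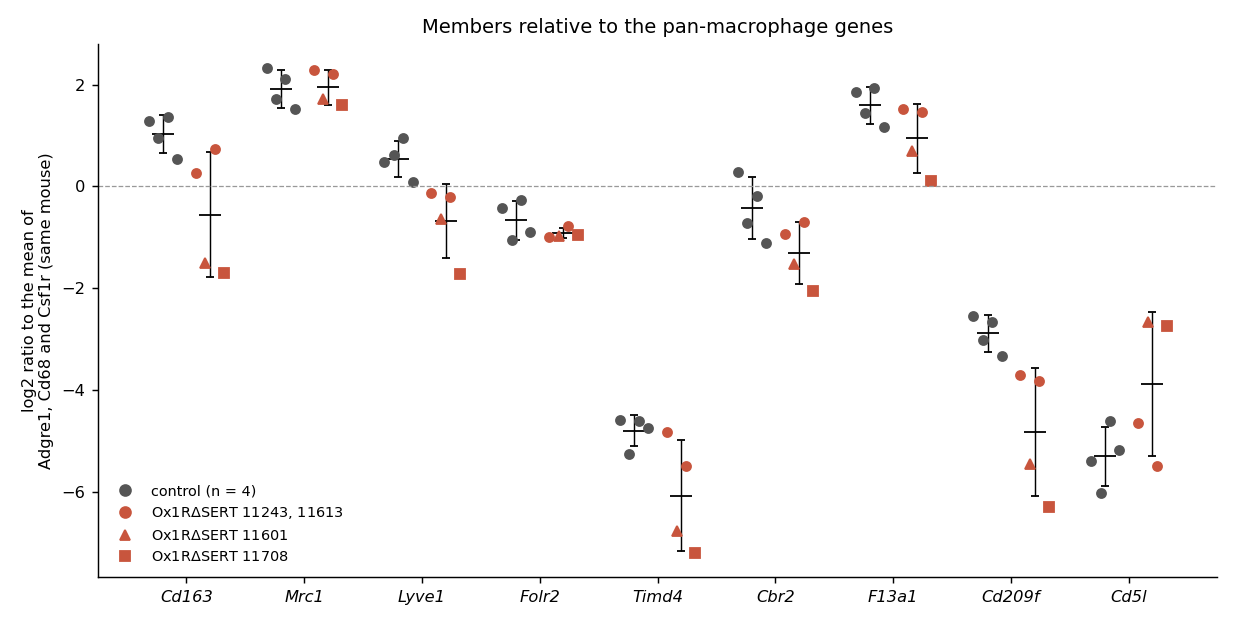
Log2 ratio of 9 resident-type genes to the mean of Adgre1, Cd68 and Csf1r in the same mouse (y axis; dashed line, equal level), with group means and SD (n = 4). For Folr2 and Mrc1 the group means differed by -0.26 and 0.04, every Ox1RΔSERT mouse lay below every control for Lyve1 and Cd209f, and Cd163 was lowest in mice 11601 and 11708 at -1.50 and -1.70.

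The composition of the set was also compared between groups. This comparison was added after the values were seen, so its p-values only describe the values. The 10 genes summed to 37.7, 38.5, 24.2 and 21.9 TPM in control mice and to 23.8, 128, 41.8 and 87.7 TPM in Ox1RΔSERT mice. Mrc1 made up 19.3%, 18.1%, 20.4% and 21.6% of this sum in control mice and 30.8%, 28.7%, 27.4% and 32.7% in Ox1RΔSERT mice. All 4 Ox1RΔSERT mice, including 11243 and 11613, lay above all controls for the share of Mrc1. The mean difference was 10.1 percentage points (exact permutation test, two-sided, p = 0.0286, unadjusted for the 10 shares). Without mice 11601 and 11708 the difference was 9.25 percentage points (exact permutation p = 0.0667, the smallest possible).

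Cd209f took 2.52% to 3.40% of the sum in control and 0.586% to 1.88% in Ox1RΔSERT mice, again with no overlap (exact permutation p = 0.0286, also unadjusted). Relative to the same sum, 0.649% of all tested genes separated upwards and 0.518% downwards. The shares of the other 8 members overlapped between groups. The share of Cd163 was 9.43% to 10.7% in control mice and 7.20%, 3.05%, 9.55% and 3.33% in Ox1RΔSERT mice (exact permutation p = 0.0571).

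Set against Mrc1 directly, Cd163 stood at 48.9, 59.1, 48.2 and 45.7 TPM per 100 TPM of Mrc1 in control mice and at 23.4, 10.6, 34.8 and 10.2 in Ox1RΔSERT mice. The groups did not overlap, but 13.3% of all tested genes separated downwards in this way from Mrc1. Per Adgre1 count there were 2.03 to 3.47 Cd163 counts in control mice and 1.35, 0.327, 1.90 and 0.318 in Ox1RΔSERT mice. Adgre1 itself was highest in mice 11601 and 11708, and the share of all tested genes that separated from Adgre1 in this way was not counted.

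**Figure D4:**
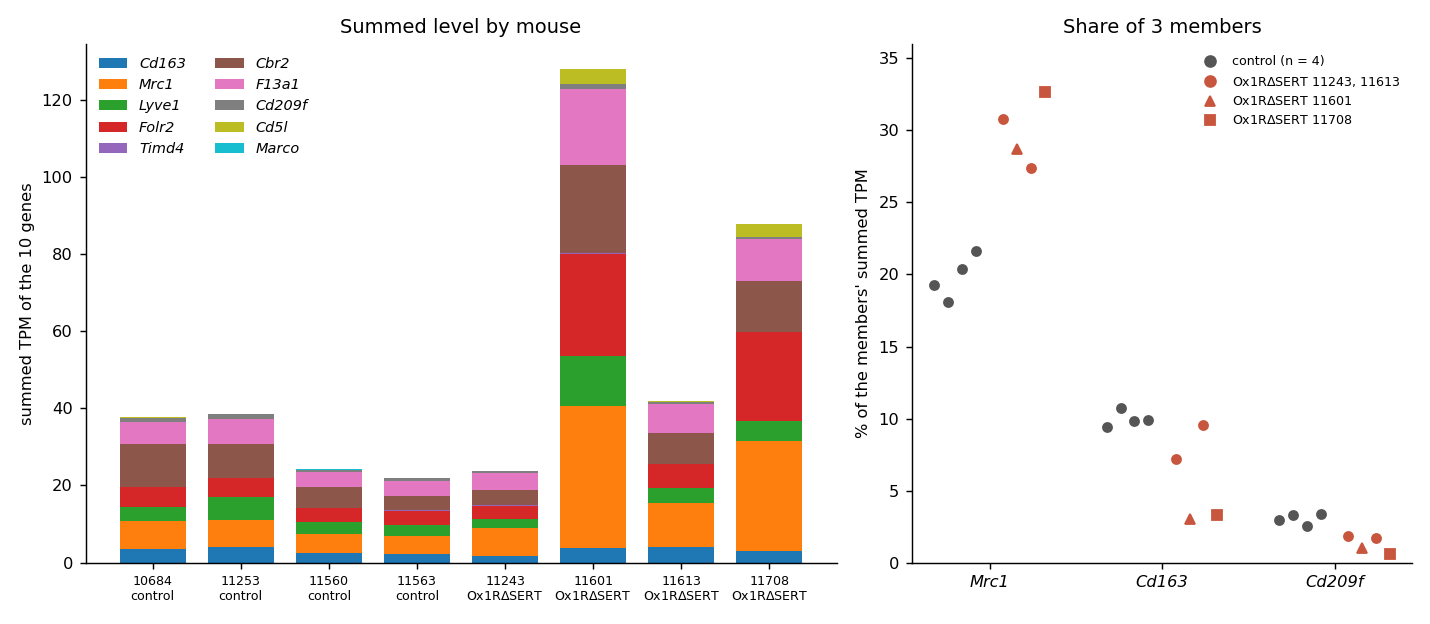
Left, summed TPM of the 10 genes in each mouse, stacked by gene; right, percent of that sum taken by Mrc1, Cd163 and Cd209f in each mouse. The sum reached 128 and 87.7 TPM in mice 11601 and 11708 against 21.9 to 41.8 TPM in the other 6, and the share of Mrc1 was 18.1% to 21.6% in control and 27.4% to 32.7% in Ox1RΔSERT mice.

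A further 27 genes that often accompany the resident programme were examined next. Of these, 25 were tested, 7 were higher at an unadjusted p under 0.05 (Stab1, Pf4, Ccl8, Igf1, Clec10a, Wfdc17 and Ednrb) and 2 were lower (Slc40a1 and Cd209g). Among all tested genes, 10.2% were higher and 4.96% were lower. Without mice 11601 and 11708, 0 of the 25 were higher and 1 was lower at this threshold (edgeR). With edgeR 0 of the 25 passed an adjusted p of 0.05, and DESeq2 called 0 of the 27. The median log2 fold change was 0.47 with all mice and -0.02 without mice 11601 and 11708. The chemokine Ccl8 had the largest log2 fold change at 1.92, the scavenger receptor Stab1 had 0.93 and the iron exporter Slc40a1 had -0.39.

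Monocyte and recruited macrophage genes were counted in the same way. Of 13 such genes 12 were tested and 8 were higher at an unadjusted p under 0.05, against 10.2% of all tested genes. DESeq2 called 5 (Ccr2, Plac8, Itgax, Itgam and Cd14), against 1.54% of 15119 genes. The median log2 fold change of the 12 was 1.72, against 0.43 for the members. Ccr2, the chemokine receptor of inflammatory monocytes, was at 2.12 ± 0.791 CPM in control and 7.81 ± 5.49 CPM in Ox1RΔSERT mice (SD, n = 4). Its adjusted p was 0.316 with edgeR and 0.0357 with DESeq2. Ly6c2, also a monocyte gene, had a log2 fold change of 0.32, with an adjusted p of 0.673 with edgeR and 0.732 with DESeq2. Without mice 11601 and 11708 the median was 0.23, and 0 of the 12 were higher at an unadjusted p under 0.05 (edgeR).

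Of 12 genes found in most myeloid cells, 11 were higher at an unadjusted p under 0.05, against 10.2% of all tested genes. DESeq2 called 7 (Ptprc, Fcgr1, Tyrobp, Fcer1g, Laptm5, Cd53 and Fcgr3), against 1.54% of 15119 genes. The groups separated upwards for Fcgr1, Fcer1g and Cd53, against 2.69% of all tested genes. The median log2 fold change of the 12 was 1.62, with Mertk, the efferocytosis receptor, lowest at 0.30 and Fcgr1 highest at 2.59. Without mice 11601 and 11708 the median was 0.35, and 0 of the 12 were higher at an unadjusted p under 0.05 (edgeR). The difference between the lists was not tested, and all lists draw on the same 8 mice.

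**Figure D5:**
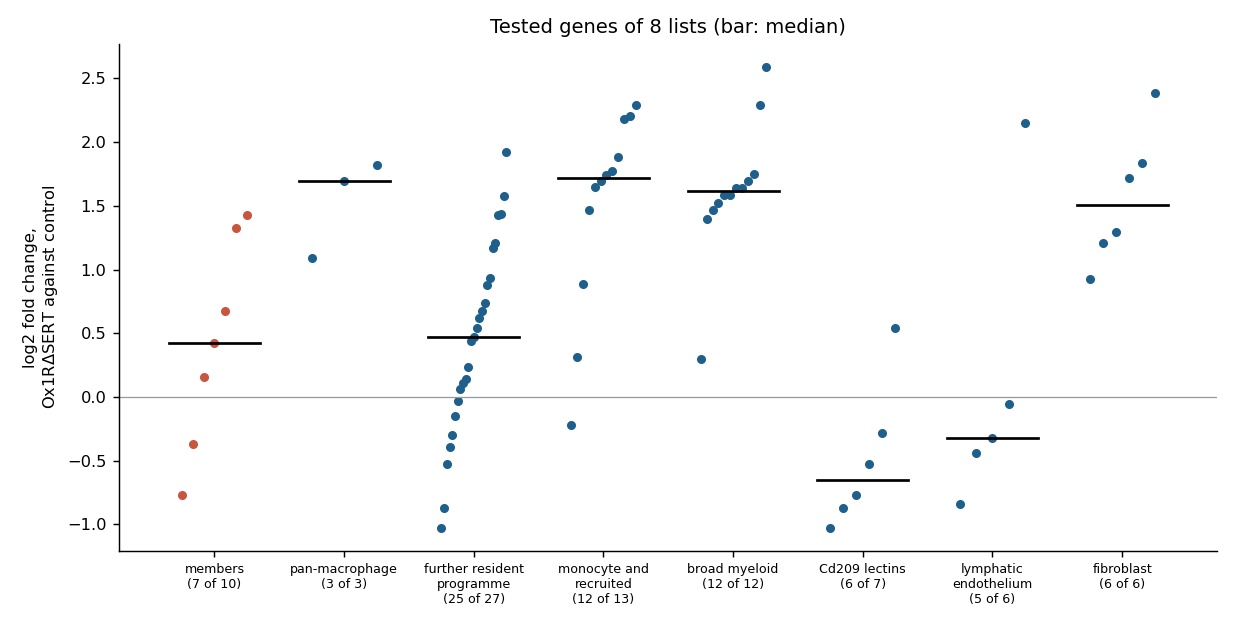
Log2 fold change, Ox1RΔSERT against control (y axis), of each tested gene in 8 lists, with the median as a bar and the number tested of the number listed under each name. Medians were 0.43 for the 10 resident-type genes, 1.70 for the pan-macrophage, 1.72 for the monocyte and 1.62 for the broad myeloid genes, and -0.65 for the Cd209 lectins.

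Growth factors and ligands of the members were examined as a further group. Csf1 and Il34, the ligands of Csf1r, had log2 fold changes of 0.64 and 0.11 and did not pass the unadjusted test, whereas the receptor subunits Csf2ra and Csf2rb did, at 1.17 and 1.12. DESeq2 called Csf2ra (adjusted p = 0.0413). Without mice 11601 and 11708, 0 of these 4 passed the unadjusted test (edgeR), and their median log2 fold change was 0.21. Hp, whose haptoglobin product delivers haemoglobin to CD163, was at 1896 CPM in control and 1777 CPM in Ox1RΔSERT mice. Has1, a synthase of the LYVE1 ligand hyaluronan, was at 1.44, 0.349, 2.06 and 1.41 CPM in control mice. In Ox1RΔSERT mice Has1 was at 1.75, 17.9, 3.44 and 9.34 CPM (log2 fold change 2.62). Its adjusted p was 0.316 with edgeR and 0.0155 with DESeq2. Fga, Fgb and Fgg, which encode the fibrinogen chains that factor XIII crosslinks, passed the unadjusted test, and they are hepatocyte genes whose highest values were in the libraries with the most liver RNA. Has1, Hp and the fibrinogen genes belong to a list of ligands and partners with 15 tested genes. Of the 15, 8 were higher at an unadjusted p under 0.05 with all mice, against 10.2% of all tested genes, and 0 without mice 11601 and 11708 (edgeR).

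Markers of some other cells were also high in mice 11601 and 11708. All 6 fibroblast markers were higher at an unadjusted p under 0.05, against 10.2% of all tested genes, with a median log2 fold change of 1.51. Of the 6, DESeq2 called 1 (Pdgfra), against 1.54% of 15119 genes. The summed TPM of the 6 was 52.6 to 89.5 in control mice, 529.6 in mouse 11601 and 247 in mouse 11708. Without these 2 mice the median of the fibroblast markers was 0.47, and 1 was higher at an unadjusted p under 0.05 (edgeR). Skeletal muscle markers summed to 1.22 to 503 TPM in control mice, with the 503 in mouse 11253, and to 1003 TPM in mouse 11708. None of the 6 blood vessel markers passed the unadjusted test. Higher at an unadjusted p under 0.05 were 2 of 5 tested neutrophil markers (Csf3r and Cxcr2), 1 of 4 dendritic (Flt3) and 1 of 5 mast cell markers (Fcer1a). Without mice 11601 and 11708, 0 were higher in these 3 lists (edgeR). DESeq2 called the dendritic marker Ccr7, which did not pass the filter on low counts. T cell markers summed to 0.162 to 0.640 TPM in control mice and to 0.302, 1.33, 0.537 and 0.955 TPM in Ox1RΔSERT mice. The part of these other cells in the macrophage values was not tested.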

How the data were processed

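The authors sequenced poly-A selected, stranded TruSeq libraries of BAT from 8 mice as paired reads and quantified genes with Salmon 0.14.1 within the nf-core rnaseq pipeline against GRCm38 (GRCm38.p6, STAR and DESeq2 1.26.0 per the labels). The annotation release and strand setting are not given in the sources used here. The deposited tables hold estimated counts, which need not be whole, and TPM, which the authors' Salmon run scales for transcript length. Estimated counts were rounded to whole numbers.

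Ensembl identifiers were matched to symbols with GENCODE M21 for 98.8% of 44674 genes. The count test was edgeR 4.0.16 (R 4.3.3) with TMM scaling, filterByExpr, the quasi-likelihood F test, two-sided, and Benjamini-Hochberg adjustment over 14489 genes, without covariates. The SE of a log2 fold change was derived from the F statistic. The count test was run on simulated data before use, which checked the calls and the log2 fold changes but not this SE. DESeq2 1.42.0 with default settings, limma 3.58.1 (voom, and trend on log2 TPM), other scalings and filters, and fits without each mouse or without mice 11601 and 11708 were the alternatives. DESeq2 with mice left out and the shares of the summed TPM were added after the data had been seen.

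Ratios used log2(CPM + 0.1) and exact permutation tests over 70 assignments (Python 3.11.15, numpy 2.4.6). Sequence sharing was counted as 31-base words common to transcripts of other genes. Totals of 35852708 to 50063339 counts per library put 3 counts at 0.0592 to 0.0951 CPM, which covers counting error only.

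The members, the 28 gene lists and the tests were chosen with earlier results of these data known. Genes named were the 10 members, the 3 pan-macrophage genes and a choice of genes from the other lists. The choice was made among genes called by any tool, the extremes of a list and members of the same protein families, and not all of these are named. A few others were named as typical of their list. The mice are separate animals with their own numbers, and the labels give no pairing between groups.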

Additional observations from a re-analysis of the deposited data

Results flagged for a closer look

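In control mouse 11253 the normalised value of Csf1r was 21.7 CPM, whereas the other 3 control mice lay between 9.12 and 10.6 CPM. The gap to the nearest mouse was 0.881 of the whole range of the group, above Dixon's critical value for 4 samples. In all, 42 groups of 4 values were examined in this way, and chance alone marks about 1 in 20. Mouse 11253 was also the highest control for Cd163, Mrc1, Lyve1, Folr2, F13a1 and Cd209f, and it held the most skeletal muscle RNA among controls.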

How the results depend on the processing

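By edgeR the number of members called at an adjusted p of 0.05 stayed at 0 in all settings, those without 1 mouse included. DESeq2 called 2, with 0 to 3 when 1 mouse was left out and 0 without mice 11601 and 11708. Members at an unadjusted p under 0.05 numbered 2, 1 to 4 without 1 mouse, 1 with limma voom and 0 without mice 11601 and 11708 by either tool. Of the members that passed the filter on low counts, which Cd5l did not, those without overlap between groups numbered 0, 1 on the TPM scale and 0 to 1 without 1 mouse. The median difference in log2 ratio of -0.87 kept its sign in all 15 alternatives, from -1.13 to -0.37, and its spread between mice was 0.53 (SD).

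The log2 fold change turned for Cd163 to 0.016 and 0.013 on the log2(TPM + 1) and log2(TPM + 0.1) scales. For Lyve1 it ran from -0.42 to 0.48 without 1 mouse, and it turned to -0.0052 without control mouse 11563, to -0.42 (edgeR) and -0.43 (DESeq2) without mouse 11601, and to -0.59 (both tools) without mice 11601 and 11708. Without these 2 mice it also turned for Folr2 (-0.010 by edgeR and -0.0098 by DESeq2) and Cbr2 (-0.27, both tools). The log2 ratio of Mrc1 turned to -0.22 with Adgre1, -0.020 with Cd68 and -0.035 with the broad myeloid genes as denominator, to -0.026 on the TPM scale, and, within a range of -0.097 to 0.17 without 1 mouse, to below 0 without control mouse 11253 or 11563 or Ox1RΔSERT mouse 11243 or 11613, and that of Folr2 turned to 0.053 with Csf1r as denominator. The cause was not tested. No paired analysis was possible because the labels tie no mouse of one group to a mouse of the other, and replicate numbers only name the mice. With 4 mice per group and a common dispersion of 0.0988, members of under 20 counts (Timd4, Marco and, in most mice, Cd5l) limit what depth can show.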

Other observations

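Protein families of the members gave further values. Of 13 scavenger receptor genes with cysteine-rich or class A domains, 8 were tested and 4 were higher in Ox1RΔSERT mice at an unadjusted p under 0.05 (Msr1, Scara3, Scara5 and Ssc5d). Among all tested genes 10.2% were higher. DESeq2 called Scara3, Ssc5d and Cd5l, against 1.54% of 15119 genes. The median log2 fold change of the 8 was 0.81. It was 0.24 without mice 11601 and 11708, where 0 were higher at an unadjusted p under 0.05 (edgeR). Cd163 had the lowest log2 fold change of the 8 at -0.37, and Scara3, a scavenger receptor that was at 1.73 ± 0.744 CPM in control and 8.42 ± 9.58 CPM in Ox1RΔSERT mice (SD, n = 4), had the highest at 2.29. Mrc2, the endocytic collagen receptor related to Mrc1, had a log2 fold change of 0.99 (edgeR, unadjusted p = 0.0461, adjusted p = 0.326). Without mice 11601 and 11708, 0 of the 3 tested genes of the Mrc1 family were higher at an unadjusted p under 0.05 (edgeR).

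Among transglutaminases, Tgm1 was the member of the F13a1 family with the largest difference. It was at 0.288, 0.222, 0.158 and 0.147 CPM in control and 0.459, 0.927, 0.674 and 1.52 CPM in Ox1RΔSERT mice, with no overlap, against 2.69% of all tested genes that separated upwards. The log2 fold change was 2.14 with an SE of 0.43, and the adjusted p was 0.316 with edgeR and 0.0155 with DESeq2. Mice 11243 and 11613 were above all controls here, unlike for F13a1. Of the hyaluronan receptors, Cd44 and Hmmr were higher at an unadjusted p under 0.05 at log2 fold changes of 2.37 and 1.33, against 0.16 for Lyve1. Without mice 11601 and 11708, 0 of these 3 were higher at this threshold (edgeR), and their median log2 fold change was 0.12. Cd44 was at 11.7 to 14.1 CPM in control mice, 137 CPM in mouse 11601, 97.3 CPM in mouse 11708 and 12.9 and 14.5 CPM in mice 11243 and 11613. The carbonyl reductases Cbr1, Cbr3 and Cbr4 had log2 fold changes of -0.24, 0.31 and -0.12, and none of the 4 in this family passed the unadjusted test.

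Havcr2, the TIM-3 gene of the Timd4 family, was at 0.429 to 0.824 CPM in control mice, 3.75 and 5.57 CPM in mice 11601 and 11708, and 0.371 and 0.472 CPM in mice 11243 and 11613 (log2 fold change 2.02; edgeR, adjusted p = 0.32). Of 6 brown adipocyte markers, Ucp1, Dio2 and Elovl3 were lower in Ox1RΔSERT mice at an unadjusted p under 0.05, against 4.96% of all tested genes. The log2 fold changes of Ucp1, Dio2 and Elovl3 were -0.54, -1.22 and -1.07, and DESeq2 called Elovl3. Without mice 11601 and 11708, 1 of the 6 was lower and 1 was higher at an unadjusted p under 0.05 (edgeR).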
